A study of Rattus norvegicus with 167 samples.

Results

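Genes of transforming growth factor beta (TGF-beta) and bone morphogenetic protein (BMP) signalling were followed in the injured rat spinal cord. Members were the genes whose symbol in the probe annotation starts with Bmp, Tgfb, Smad, Acvr, Inhb, Gdf or Ltbp in the forms that name the ligands, receptors, SMADs and latent binding proteins. The rule used symbols and no measured value, but it was set with earlier results of these data known. It gave 45 of the 14218 genes that a probe set names alone, and 38 of them were bright enough to be tested. Acvr1c, Bmp3, Bmp8a, Bmp15, Gdf6, Gdf9 and Inhbc were below the filter on dim genes and are only named here. Bmp2k, a kinase, Tgfb1i1, a LIM-domain protein, and Tgfbrap1 match by symbol only and are counted with the 38. The TGF-beta type II receptor was not analysed here.

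The tissue came from adult female Wistar rats in which the thoracic cord was cut through completely at T7/8 and 5 mm of cord were taken out. In one arm a chitosan tube carrying the growth factor neurotrophin-3 (NT3) bridged the gap, in another the chitosan tube was empty (ET), and in the lesion control (LC) the gap was left alone. Affymetrix arrays measured RNA of 5 mm segments just rostral to the gap, at the lesion site and just caudal to it, on days 1, 3, 10, 20, 30, 60 and 90, with the lesion site from day 3 and the empty tube at the lesion site on day 3 only. Counting 3 uninjured cords as a group, there were 55 groups of 3 arrays and 1 of 2 (rostral ET, day 10). Every injured group shares the transection and the removal of cord. Nothing in the labels says that arrays of a group came from separate animals, so p-values measure the spread between these arrays, which may be partly technical.

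Ligands of this family bind pairs of type I and type II receptors, which phosphorylate SMAD proteins that enter the nucleus with SMAD4. TGF-betas and activins act mainly through SMAD2 and SMAD3, BMPs mainly through SMAD1, SMAD5 and SMAD9, and SMAD6 and SMAD7 hold the pathway back. TGF-beta is secreted in a latent form tethered to the matrix by latent TGF-beta binding proteins, and in injured cord the pathway is known for its part in glial and fibrous scarring.

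Values are log2 levels, so a difference of 1 is a 2-fold difference in signal, and levels of different genes are not compared. A member was called when its Benjamini-Hochberg adjusted p in limma, taken over all 12041 tested genes, was under 0.05. Early means days 1 and 3 (day 3 at the lesion site), intermediate days 10 to 30, and late days 60 and 90. The tissue itself differed between the groups. The mean level of 7 fibroblast and meninges markers was 12.49 to 13.36 in LC lesion-site arrays and 8.69 to 8.82 in uninjured cords, and that of 6 neuron markers was 5.93 to 8.33 and 11.17 to 11.35. The microglia and macrophage list ran at 9.49 to 10.84 and 7.59 to 7.78. The part of these cell types in the results was not tested, and in such bulk tissue fewer cells of a type and less RNA per cell cannot be told apart. Array values have no true zero, so no marker can be called absent. The gap between 3-prime and 5-prime beta-actin probe sets, a sign of RNA quality, was 1.35 to 2.29 in the uninjured cords and had medians of 0.91 to 1.15 in the arms of injured cords, so it moved with injury. It was used as a covariate in an alternative fit. RT1-CE10 is a polymorphic major histocompatibility gene. Its probe set stood above a level of 9 in 3 of 21 NT3, 9 of 20 ET and 10 of 21 LC arrays rostrally. At the lesion site it did so in 3 of 18 NT3, 10 of 18 LC and 0 of 3 ET arrays. None of the 3 uninjured cords did. Every treatment comparison of means over several days was therefore also made on the days with RT1-CE10 alike. On these days all arrays of both groups lay on the same side of 9. They were days 10, 30 and 60 for NT3 against LC at the lesion site, and 10, 20, 30 and 60 outside it. For NT3 against ET they were 3, 10, 20, 30 and 90, and for ET against LC 1, 10, 20 and 30. Comparisons with ET at the lesion site and tests of change with the day were not remade this way.

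At the lesion site of LC rats most members rose above uninjured cord, led by Gdf10, Ltbp2, Ltbp1 and Bmp7. Of the 38 tested members, 26 rose and 6 fell on day 3, 29 rose and 6 fell at intermediate days, and 29 rose and 4 fell late. Over all tested genes 40.8%, 41.9% and 40.4% were called higher and 33.5%, 37.1% and 35.0% lower, so a call was common in this tissue for any gene. Rises of at least 2-fold were found for 20, 22 and 23 members, where 19.0%, 17.7% and 16.2% of all genes rose that far. The median member differed by 1.10, 1.29 and 1.26, against 0.08, 0.07 and 0.06 over all tested genes. Both TGF-beta and BMP ligands rose: at each time all 3 TGF-betas and all 5 tested BMPs were called higher, as were all 4 latent binding proteins at intermediate and late days.

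Gdf10, a secreted ligand also known as BMP3b, had the largest difference on day 3 and late. Its level was 9.53, 9.67 and 10.00 at the lesion site of LC rats on day 3, against 5.15, 5.42 and 5.52 in uninjured cords. At late days the lowest, median and highest of 6 LC lesion-site arrays were 10.47, 10.92 and 11.22. No LC lesion-site array came near the uninjured cords. The differences were 4.37 (SE 0.20, adjusted p = 1e-18, limma) on day 3, 3.91 at intermediate days and 5.50 (SE 0.18, adjusted p = 4.7e-23, limma) late, the last a 45.4-fold difference. Within the LC lesion site Gdf10 averaged 9.74 ± 0.24 on day 3, 8.58 ± 0.17 on day 10 and 11.11 ± 0.12 on day 90 (SD, n = 3 each).

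Latent binding proteins followed. Ltbp2, which binds fibrillin in the matrix, had 10.14, 10.48 and 10.63 on day 3 at the LC lesion site, against 6.88, 6.88 and 6.90 in uninjured cords, and differed by 3.53, 4.08 and 4.29 at the 3 times (SE 0.18, 0.15 and 0.15). At late days its LC arrays had 10.68, 11.24 and 11.40 as lowest, median and highest. Ltbp1, which tethers latent TGF-beta, differed by 3.05, 3.68 and 4.19, with 10.24, 10.33 and 10.46 on day 3 at the LC lesion site and 7.19, 7.36 and 7.36 in uninjured cords. Ltbp1 had 10.44, 10.92 and 11.48 at intermediate and 11.29, 11.50 and 11.67 at late days. Neither overlapped the uninjured cords at any time. Ltbp4 did otherwise: it was not called on day 3, where the difference was 0.43, and was 2.12 higher at intermediate and 3.43 higher at late days. Between late and early LC lesion sites Ltbp4 differed by 2.99 (SE 0.18, adjusted p = 5.7e-15, limma), with 10.82, 11.04 and 11.29 as lowest, median and highest late and 8.00, 8.09 and 8.11 on day 3. That was the largest late gain among the tested members, and the groups did not overlap.

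Smad9, a SMAD that BMP receptors activate, had the largest fall at each of the 3 times. Its level was 7.16, 7.40 and 7.93 at the LC lesion site on day 3, against 9.004, 9.10 and 9.14 in uninjured cords. The differences were -1.59, -1.99 (SE 0.17, adjusted p = 2.1e-12, limma) and -1.23, a 3.98-fold difference at intermediate days, and no array overlapped. Its second probe set, very dim at a mean level of 4.33, differed by -0.10 at intermediate days, so the fall rests on the brighter one.

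The promoters of these 3 genes, the 2 largest rises and the largest fall at the late lesion site, are shown because the results turn on them. They are RefSeq sequences of build GRCr8, each running from 250 bases before to 50 bases after the gene start, 300 bases long. Gdf10 is at chr16:9243262-9243561 (+ strand), Ltbp2 at chr6:110257249-110257548 (- strand) and Smad9 at chr2:141106418-141106717 (+ strand), printed on the gene's own strand. Capitals mark the letters CAGAC, on either strand (so GTCTG too), and GGCGCC, which reads the same on both strands. Matches of the 2 motifs do not overlap each other in these 3 sequences.
Gdf10 promoter: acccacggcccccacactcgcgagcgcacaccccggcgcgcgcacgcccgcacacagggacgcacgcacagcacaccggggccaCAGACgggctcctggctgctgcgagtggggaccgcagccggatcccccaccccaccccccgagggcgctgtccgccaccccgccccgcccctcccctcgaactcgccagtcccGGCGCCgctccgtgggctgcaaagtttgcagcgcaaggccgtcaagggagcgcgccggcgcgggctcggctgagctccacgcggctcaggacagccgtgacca
Ltbp2 promoter: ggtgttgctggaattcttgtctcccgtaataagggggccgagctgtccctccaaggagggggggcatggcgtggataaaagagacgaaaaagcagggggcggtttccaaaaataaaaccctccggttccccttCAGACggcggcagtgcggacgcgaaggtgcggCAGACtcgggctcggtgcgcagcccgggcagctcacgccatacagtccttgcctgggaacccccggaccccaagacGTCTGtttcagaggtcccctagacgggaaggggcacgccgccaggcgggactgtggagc
Smad9 promoter: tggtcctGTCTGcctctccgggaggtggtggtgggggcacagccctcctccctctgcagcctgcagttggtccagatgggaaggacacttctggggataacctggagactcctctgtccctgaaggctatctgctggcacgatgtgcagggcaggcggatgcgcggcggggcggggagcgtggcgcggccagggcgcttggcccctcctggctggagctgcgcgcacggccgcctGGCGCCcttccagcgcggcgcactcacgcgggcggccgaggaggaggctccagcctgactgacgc

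CAGAC holds the core of the element that SMAD3 and SMAD4 can bind, and GGCGCC is one that SMADs activated by BMP receptors can bind. Gdf10 and Smad9 have 1 match to each motif, and Ltbp2 has 3 to CAGAC and none to GGCGCC. Over 33469 rat promoters of this length 50.06% hold CAGAC and 11.02% hold GGCGCC. Of the 38 members with a promoter entry, 12 hold CAGAC (31.58%) and 11 hold GGCGCC (28.95%). Members were counted with 1 promoter per gene, while the shares over all promoters count every entry, so the sets are unlike. These are not the same 38 as the tested members: the untested Acvr1c has an entry, for instance, and the tested Bmp7 has none. A match is a description of letters and says nothing of binding in these samples.

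**Figure D1:**
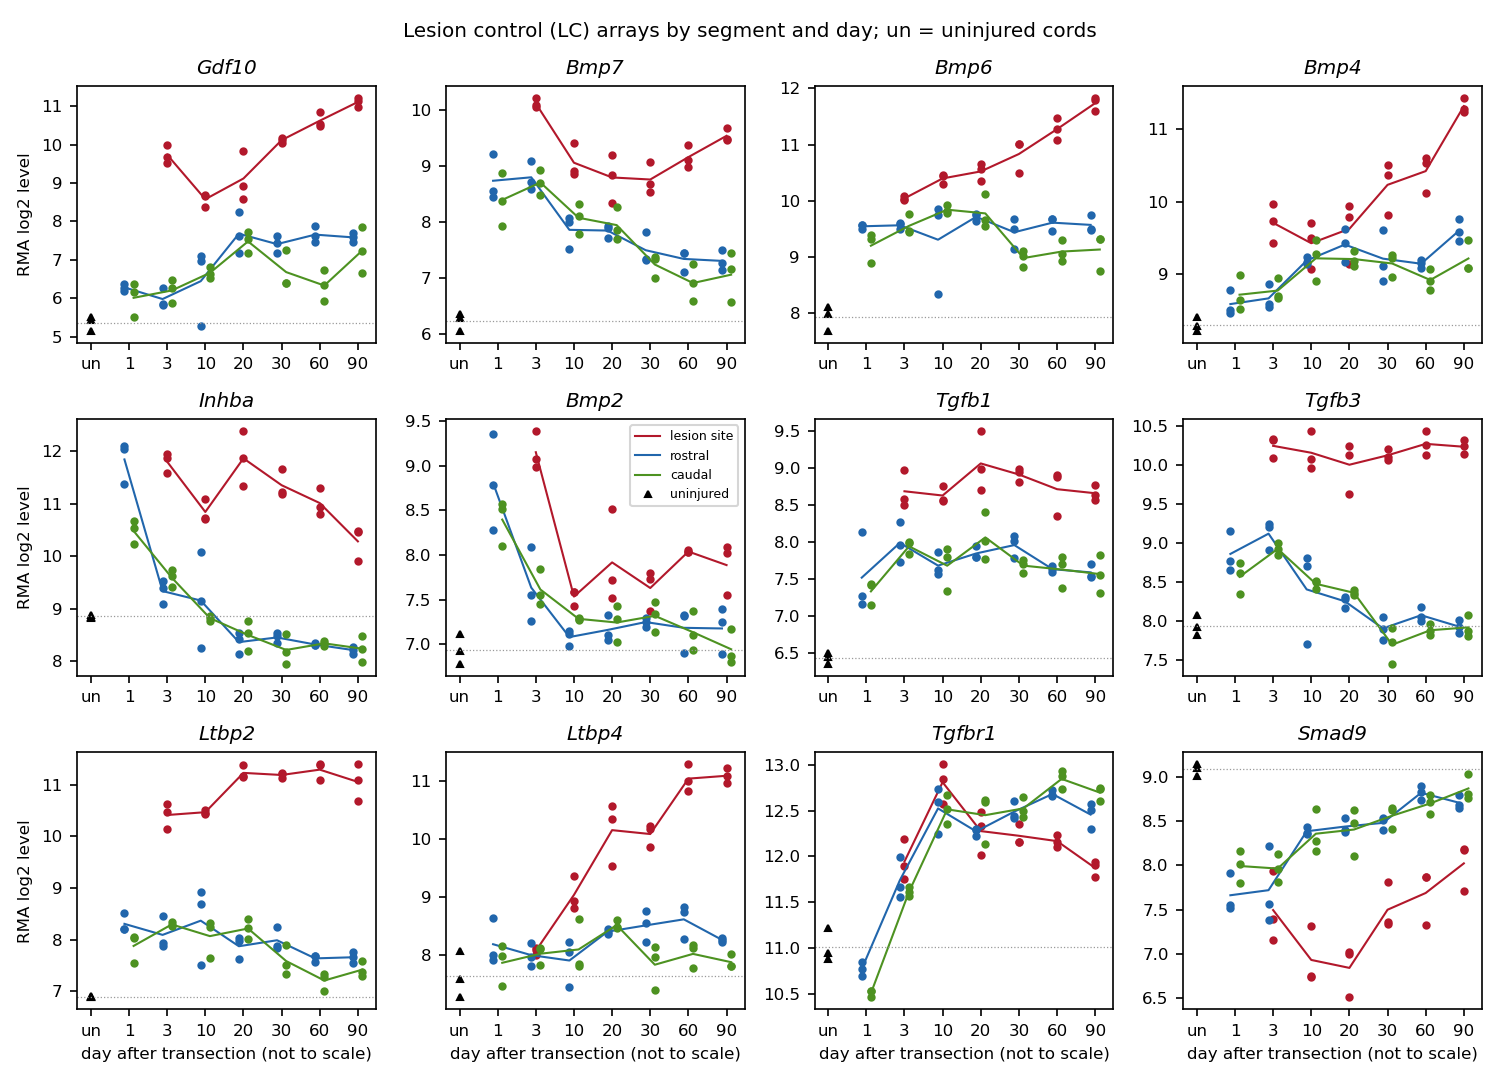
Levels (RMA log2, y axis) of 12 members on LC arrays by day (x axis, not to scale) at the lesion site (red), rostral (blue) and caudal (green) segments; each point is an array, lines join group means, black triangles and the dotted line are the 3 uninjured cords and their mean. Gdf10 stands at 9.53 or above on day 3 at the lesion site against at most 5.52 in uninjured cords, Inhba and Bmp2 peak on day 1 outside it, and every Tgfbr1 point from day 3 on lies above the uninjured cords.

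Bmp7, a BMP ligand, was highest early. It had 10.04, 10.08 and 10.22 at the LC lesion site on day 3, against 6.06, 6.29 and 6.35 in uninjured cords, a difference of 3.88 (SE 0.15, adjusted p = 1.6e-20, limma). Later it was lower but still 2.64 and 3.11 above uninjured cord. Late minus early it was -0.77 at the lesion site, with 8.99, 9.42 and 9.67 as lowest, median and highest late.

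Bmp6 and Bmp4 were higher late than on day 3 at the lesion site. Bmp6 had 11.08, 11.53 and 11.83 as lowest, median and highest at late LC lesion sites and 7.69, 8.00 and 8.11 in uninjured cords. The difference grew over the 3 times (2.11, 2.65 and 3.57), and late minus early was 1.46 (SE 0.12, adjusted p = 2.4e-12, limma). Bmp6 has 4 probe sets, and while the used one differed by 2.65 at intermediate days the others, which were not tested, differed by 2.61, 0.39 and 0.24. Bmp4 had 10.12, 10.92 and 11.43 at late LC lesion sites and 9.42, 9.74 and 9.96 on day 3, a difference of 1.16 (SE 0.19). Its mean was 9.43 ± 0.33 on day 10 and 9.71 ± 0.27 on day 3 (SD, n = 3 each), and these arrays overlapped. On day 90 Bmp4 averaged 11.32 ± 0.10 (SD, n = 3), and all 3 arrays lay above those of every other day. Bmp2, another BMP, had 7.55, 8.03 and 8.09 at late LC lesion sites and 8.98, 9.08 and 9.39 on day 3, a difference of -1.19 (SE 0.17).

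The 3 TGF-betas were higher by 2.24 (Tgfb1), 2.48 (Tgfb2) and 2.31 (Tgfb3) at the LC lesion site on day 3. Tgfb1 averaged 8.68 ± 0.26 there on day 3 and 8.66 ± 0.11 on day 90, against 6.44 ± 0.08 in uninjured cords (SD, n = 3 each). Tgfb2 had 9.66, 9.99 and 10.09 late and 10.61, 11.09 and 11.40 on day 3, a late minus early difference of -1.08 (SE 0.14), and stood 1.41 and 1.40 above uninjured cord at intermediate and late days. For Tgfb1 and Tgfb3 the late minus early differences, 8.0e-04 and 0.0069, were not called. Of the 3 isoforms only Tgfb2 was called between these times.

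Other members at the lesion site included Inhba, the beta A subunit of activin A and inhibins, which was 2.95, 2.50 and 1.79 above uninjured cord. Inhba had 9.92, 10.64 and 11.30 late and 11.58, 11.87 and 11.95 on day 3, a late minus early difference of -1.15 (SE 0.17) with no overlap. Acvrl1, a type I receptor best known in endothelium, differed by 1.87, 2.59 and 2.69. Gdf15, a stress-induced divergent ligand, differed by 2.22, 2.29 and 1.69, Bmp5 by 2.34, 1.83 and 2.64, and Bmp1, a procollagen proteinase and no ligand despite its name, by 1.99, 2.20 and 2.08. Smad2, Smad3 and Smad4 were 1.11, 1.24 and 1.30 higher on day 3. Smad2 and Smad3 carry TGF-beta and activin signals, and Smad4 is the partner of all receptor-activated SMADs.

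Falls at the lesion site besides Smad9 were fewer and smaller. Gdf11, a ligand that uses activin receptors, had 8.55, 8.77 and 8.96 on day 3 and 9.68, 9.70 and 9.81 in uninjured cords, with differences of -0.97, -1.20 and -0.90. Inhbb, the beta B subunit, differed by -0.77, -0.85 and -1.03, and one LC lesion-site array at 8.04 reached the uninjured range at intermediate days. Smad7, an inhibitory SMAD that TGF-beta can induce, differed by -0.50, -0.77 and -0.34, with 8.31, 8.31 and 8.40 on day 3 and 8.65, 8.87 and 8.98 in uninjured cords. Acvr2b, a type II activin receptor, was lower on day 3 (-0.48) and at intermediate days (-0.44), Tgfbr3 on day 3 (-0.42) and Bmpr2, the main type II BMP receptor, at intermediate days (-0.42). At intermediate days Smad7 had 7.48, 8.10 and 8.40 and Gdf11 8.31, 8.52 and 8.83, and neither overlapped the uninjured cords. Late, Inhbb had 6.83, 7.08 and 7.66 and Smad9 7.33, 7.87 and 8.18, again clear of them. The second probe set of Gdf11, near a level of 4, differed by 0.18 where the used one differed by -1.20. The second probe set of Bmpr2 differed by 0.41 against -0.42, and the other probe sets of Smad7 differed by -0.23 and -0.07 against -0.77. That of Tgfbr3 was nearly as bright as the used one (mean levels 6.50 and 6.61). At intermediate days, when Tgfbr3 was not called, it differed by 0.69 against -0.15. These other probe sets were not tested.

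Away from the lesion site members also rose more often than they fell, led by Bmp7, Ltbp1 and Bmp6 early and by Gdf10, Gdf15 and Tgfbr1 late. In the LC rostral segment 25 members rose and 7 fell early, 22 and 6 at intermediate days and 21 and 7 late. Of all genes 36.0%, 29.1% and 24.9% were called higher there and 31.8%, 31.3% and 28.7% lower. In the caudal segment 21 rose and 9 fell early, 23 and 6 at intermediate days and 19 and 7 late, where 34.3%, 29.2% and 25.2% of all genes were called higher and 30.7%, 32.5% and 31.5% lower. Rises of at least 2-fold numbered 11, 9 and 9 rostrally and 9, 8 and 6 caudally, against 10.3%, 7.73% and 6.70% of all genes rostrally and 9.16%, 7.97% and 6.41% caudally.

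Early, the leaders outside the lesion were Bmp7, Ltbp1, Inhba and Bmp6. Bmp7 had 8.44, 8.66 and 9.21 as lowest, median and highest of 6 rostral LC arrays and 6.06, 6.29 and 6.35 in uninjured cords, a difference of 2.53 (SE 0.17, adjusted p = 3.0e-18, limma). Ltbp1 differed by 2.09, with 9.22 to 9.56 against 7.19 to 7.36, and no overlap. Caudally Bmp7 had 7.94, 8.59 and 8.92 and differed by 2.32 (SE 0.20), and Ltbp1 had 8.67, 9.24 and 9.58 and differed by 1.91 (SE 0.22). Bmp6 had 9.50, 9.57 and 9.61 rostrally and 8.89, 9.42 and 9.76 caudally, against 7.69, 8.00 and 8.11 in uninjured cords, differences of 1.63 and 1.45. In both segments these 3 genes stood clear of the uninjured cords.

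At intermediate days Ltbp1, Bmp6, Bmp7, Gdf10 and Gdf15 were among the highest differences outside the lesion. In the rostral segment Ltbp1 had 8.12, 8.86 and 9.81 and differed by 1.65, Bmp6 had 8.34, 9.68 and 9.85 and differed by 1.56, and Bmp7 had 7.33, 7.83 and 8.07 and differed by 1.503. Caudally Gdf15 had 6.13, 6.98 and 9.11, against 4.97, 5.11 and 5.71 in uninjured cords, a difference of 1.83. Ltbp1 had 8.59, 9.13 and 10.02 there (1.83), Bmp6 8.82, 9.66 and 10.11 (1.60) and Gdf10 6.39, 6.80 and 7.73 (1.58). None of these overlapped the uninjured cords, while rostral Gdf10, at 5.28, 7.18 and 8.26 with a difference of 1.82, did.

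Inhba was highest on day 1 in the rostral segment, where it had 11.38, 12.05 and 12.11 on LC arrays of day 1, against 8.83, 8.85 and 8.88 in uninjured cords. It averaged 9.34 ± 0.22 there on day 3 and 8.21 ± 0.07 on day 90, against 8.85 ± 0.03 in uninjured cords (SD, n = 3 each). The early difference was 1.74 (SE 0.19). The late rostral difference was -0.59 (SE 0.19, adjusted p = 0.0089, limma), and all late arrays lay below uninjured cord. With the beta-actin covariate it was -0.42 and no longer called (adjusted p = 0.127, limma). Late caudal LC arrays had 7.99, 8.32 and 8.48, a difference of -0.56 from uninjured cord, and early ones 9.42, 9.99 and 10.67. Late minus early was -2.32 (SE 0.16) rostrally and -1.75 (SE 0.13) caudally, the largest time change of any tested member in each segment. Late against early, 12 members were higher and 13 lower rostrally (25.6% and 32.6% of all genes), 15 higher and 4 lower at the lesion site (23.6% and 30.0%), and 10 higher and 10 lower caudally (22.7% and 35.5%).

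Bmp2 was also highest on day 1, with 8.28, 8.78 and 9.36 on rostral LC arrays of day 1 and 6.78, 6.92 and 7.12 in uninjured cords. It was back to 7.18 ± 0.26 on rostral LC arrays by day 90. Late minus early it was -1.04 rostrally and -0.96 caudally. Bmp7 and Tgfb3 were lower late too, at -1.44 and -0.99 rostrally and -1.56 and -0.85 caudally. Tgfb3 had 7.85, 8.01 and 8.18 late and 8.66, 9.04 and 9.24 early in the rostral segment, with no overlap. Caudally Bmp7 had 6.57, 7.03 and 7.45 late and 7.94, 8.59 and 8.92 early, and Bmp2 6.80, 7.02 and 7.37 late and 7.45, 7.97 and 8.57 early, again with no overlap. Tgfb2 ran the other way there, 0.71 higher late, with 9.04, 9.16 and 9.32 late and 8.04, 8.43 and 8.98 early.

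Tgfbr1, the type I receptor of TGF-beta, was also higher late than early. On day 1 it was 10.70, 10.77 and 10.84 on rostral LC arrays, below the 10.89, 10.94 and 11.22 of uninjured cords, and by day 60 it was 12.68 ± 0.03 rostrally (SD, n = 3). Late minus early, it gained 1.31 (SE 0.08, adjusted p = 2.2e-19) rostrally and 1.71 (SE 0.07, adjusted p = 1.8e-24, limma) caudally. The groups did not overlap in either segment. At late caudal days, with 12.60, 12.74 and 12.93, Tgfbr1 had the largest difference from uninjured cord of any tested member, 1.76 (SE 0.09).

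Late rostral LC arrays were led by Gdf10, Gdf15, Bmp6 and Bmp5, with differences of 2.26 (SE 0.28), 2.13 (SE 0.22), 1.66 (SE 0.17) and 1.62 (SE 0.20). Gdf15 had 7.01, 7.38 and 7.78, against 4.97, 5.11 and 5.71 in uninjured cords, and at late caudal days 6.80, 6.93 and 7.39 (difference 1.72). Bmp6 had 9.47, 9.59 and 9.74 and Bmp5 6.94, 7.11 and 7.29, against 5.29, 5.42 and 5.76 for Bmp5 in uninjured cords. At late caudal days Gdf10 had 5.92, 6.70 and 7.86 and differed by 1.43, and none of these groups overlapped. In the rostral segment Gdf10 had 7.46, 7.60 and 7.89 as lowest, median and highest late and 5.83, 6.23 and 6.38 early. There the late group did not overlap the early one. At intermediate days a single rostral LC array of day 10 had Gdf10 at 5.28 and its partners at 6.96 and 7.09. The same array was the lowest of its group in Inhba (8.25, against 10.07 and 9.15), Ltbp1, Ltbp2, Bmp6 and Tgfb3, and the fibroblast and meninges marker level of these 3 arrays ran from 10.05 to 12.53. The part of this spread in the result was not tested.

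Falls outside the lesion were led by Smad9 and Inhbb. Smad9 had 7.39, 7.56 and 8.21 on early rostral LC arrays and 9.004 to 9.14 in uninjured cords, a difference of -1.39 (SE 0.12), and differed by -0.65 and -0.32 at the later times. Caudally it had 7.80, 7.98 and 8.16 early and differed by -1.10. Gdf11 had 8.83, 9.15 and 9.42 on early rostral and 8.88, 9.08 and 9.21 on early caudal arrays, against 9.68, 9.70 and 9.81 in uninjured cords, and differed by -0.61 and -0.66. Inhbb had 6.45, 6.95 and 7.37 early, against 8.03, 8.04 and 8.44 in uninjured cords, and differed by -1.25, -0.66 and -0.33, and caudally by -1.26, -0.80 and -0.37. Late minus early differences were 1.07 for Smad9 and 0.93 for Inhbb rostrally, and 0.81 and 0.89 caudally, so both were closer to uninjured cord late. Late rostral arrays had 8.64, 8.77 and 8.89 for Smad9 and 7.50, 7.84 and 8.12 for Inhbb. Bmpr2 differed by -0.97 early, with 7.85, 8.38 and 8.84 against 9.14, 9.25 and 9.52, by -0.85 at intermediate days and by -0.16 late, which was not called. Its caudal early call at -0.76 (adjusted p = 0.034, limma) was lost with the beta-actin covariate, with the mean of its probe sets, without the 3 arrays that stood apart and without 1 caudal LC array of day 1 (replicate 1), either of 2 of day 3 (replicates 2 and 3) or either of 2 uninjured cords (replicates 1 and 2). Gdf11, Smad7 and Acvr2b were called lower at every time in both segments, with Gdf11 at 9.11, 9.34 and 9.41 and Smad7 at 8.19, 8.37 and 8.59 on late rostral arrays, both clear of uninjured cord, but calls of falls were often lost when the beta-actin gap was a covariate. Of 7 late rostral falls 2 stayed called, Gdf11 and Smad9, and Inhba, Inhbb, Smad7, Acvr2b and Tgfbr3 did not. Of 6 rostral falls at intermediate days 3 stayed called, and Smad7, Acvr2b and Bmpr2 did not. Early, the rostral calls of Bmpr2 and Smad7 were lost, and late caudal falls went to 4 called of 7.

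**Figure D2:**
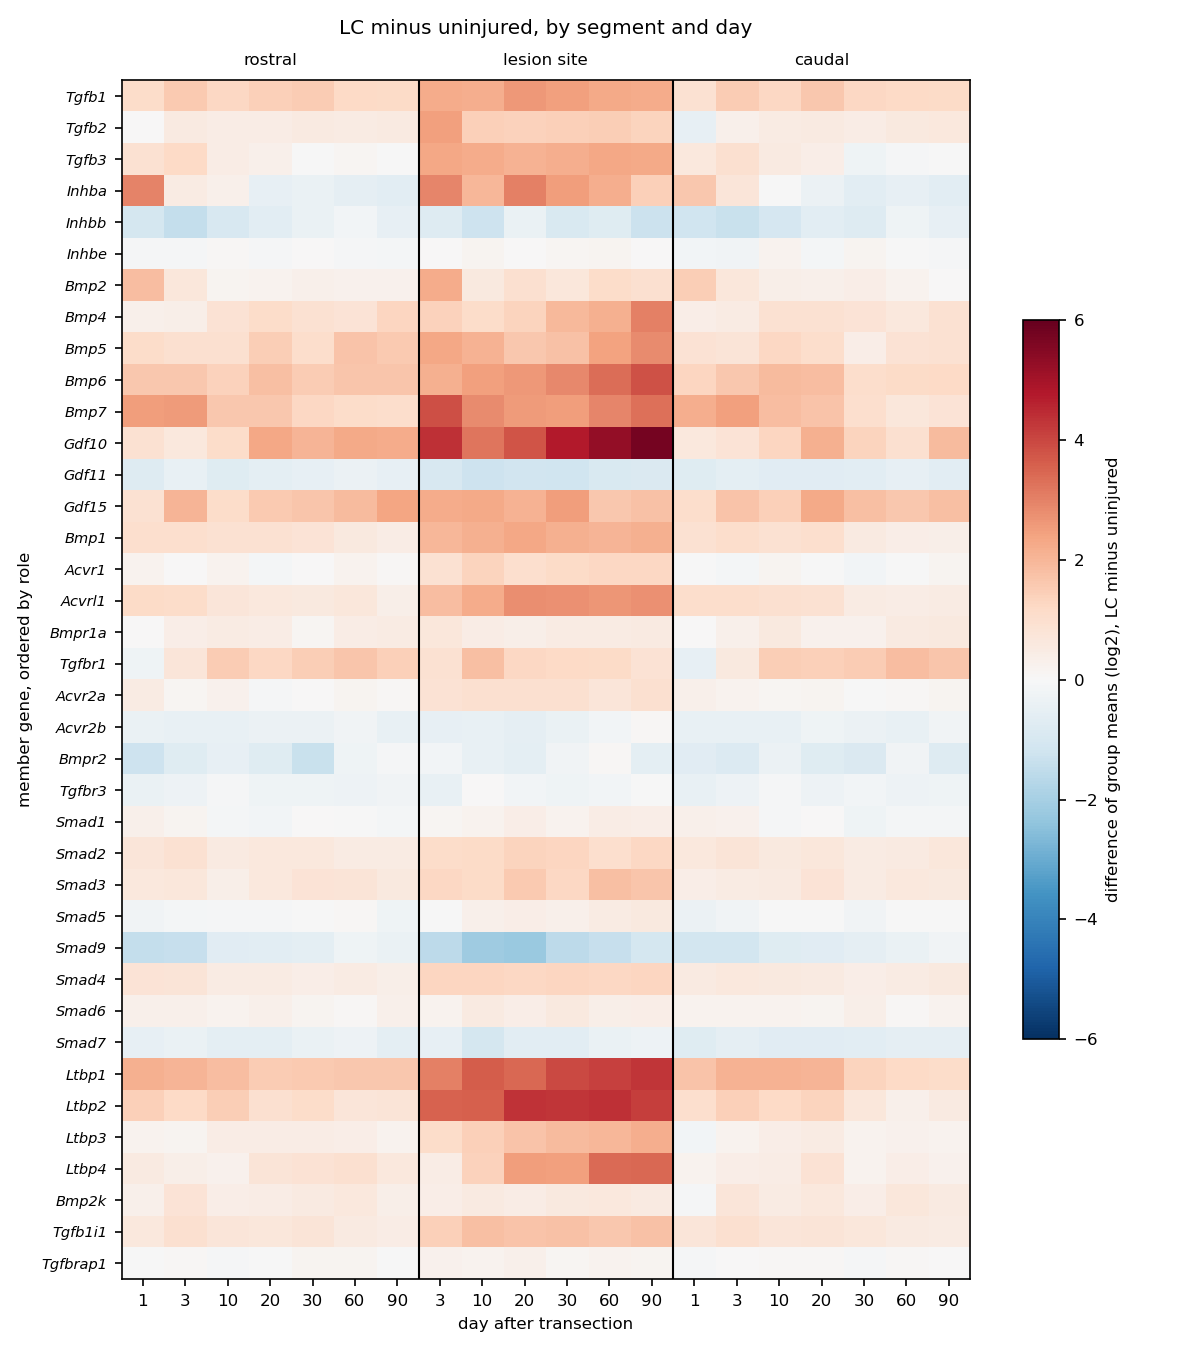
Difference of LC group means from the uninjured mean (colour, log2, red higher) for the 38 tested members, listed by role down the page, by segment and day across it. The reds are deepest at the lesion site, up to 5.75 on day 90 for Gdf10, and Smad9, Gdf11, Smad7 and Inhbb are blue on every day of every segment.

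Compared with its own neighbours, the LC lesion site over days 3 to 90 had 29 members higher and 4 lower, while 48.5% of all genes were called higher and 37.8% lower. At least 2-fold higher were 15 members and 2-fold lower 1, with 8.06% and 9.93% of all genes. Ltbp2 led with 10.14, 11.11 and 11.40 as lowest, median and highest at the lesion site and 7.01, 7.86 and 8.92 in the neighbouring segments, a difference of 3.08 (SE 0.08, adjusted p = 2.2e-31, limma). Gdf10 had 8.38, 10.03 and 11.22 against 5.28, 7.13 and 8.26 (difference 2.93), Inhba 9.92, 11.20 and 12.39 against 7.94, 8.45 and 10.07 (2.56), and Ltbp1 differed by 2.07. Of these 4 only Inhba overlapped between the sites. Smad9 was 1.04 lower, with 6.51, 7.34 and 8.18 against 7.39, 8.52 and 9.03, and its groups overlapped. Gdf11 had 8.31, 8.62 and 8.99 against 8.87, 9.19 and 9.42 (-0.50), and Inhbb differed by -0.19. Tgfbr1 differed by -0.18, and the mean of its probe sets turned the sign, to 0.03.

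No member was called between the rostral and the caudal LC segment in limma, where 0.191% of all genes were called and 8 members had an unadjusted p under 0.05. The largest difference was 0.39 for Bmp5 (SE 0.10, adjusted p = 0.072, limma), with 5.54, 6.85 and 7.29 rostrally and 5.53, 6.32 and 6.87 caudally. The count was 1 or 2 with array weights, a single fit of all arrays or the mean of probe sets, and reached 3 without the first rostral LC array of day 10.

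Other genes of the pathway were counted by role, against the 40.8% of all genes called higher and 33.5% called lower at the LC lesion site on day 3. Of 13 tested antagonists 9 were higher and none lower on day 3 at the LC lesion site, and 13 were higher late. Fst, which traps activin, was 4.44 (SE 0.33) higher on day 3 and 2.81 late. Fstl3, its relative, was 2.90 higher on day 3, and Nbl1 was 3.45 (SE 0.14) higher late. Among co-receptors and activators Fbn1, the matrix fibrillin that holds latent complexes, was 4.83 (SE 0.11) higher on day 3 and Eng, an endothelial co-receptor, 2.55. Of 10 SMAD regulators 7 were higher and 1 lower on day 3, with Tgif1, a repressor of SMAD transcription, at 2.96. Of 9 tested targets 5 were higher and 2 lower on day 3, near the shares of all genes. Ccn2 and Tgfbi, genes that TGF-beta induces, were 4.32 (SE 0.19) and 4.13 (SE 0.10) higher, and Junb, an early target of the pathway, 2.55 higher. The 2 lower ones were Id4 (-2.43) and Msx2 (-0.98), BMP targets named after their values were seen. The remaining targets are not named, so these genes show no direction for TGF-beta or BMP targets as sets. Rostrally 7 antagonists were higher and 2 lower early, and 8 were higher and none lower late, where 36.0% and 31.8% of all genes were called higher and lower early and 24.9% and 28.7% late.

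With the NT3 tube at the lesion site, 4 members were higher and 14 lower than in LC over days 3 to 90, while 19.0% of all genes were called higher and 22.9% lower. The median member differed by -0.08, against -0.01 over all genes. Tissue markers moved as well. All 7 skeletal muscle markers were higher with NT3, and the list ran from 7.08 to 11.02 with a median of 8.68 in NT3 arrays, against 5.70 to 9.54 and 6.87 in LC. The neuron list had medians of 7.79 and 6.77, the oligodendrocyte list 11.10 and 10.26, and the microglia and macrophage list 9.66 and 10.26. Muscle markers were used as a covariate in an alternative fit, and the part of the other lists was not tested.

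Inhba, the activin subunit, had the largest difference. Its lowest, median and highest levels were 9.02, 9.52 and 11.11 in 18 NT3 arrays, against 9.92, 11.20 and 12.39 in 18 LC arrays. The difference was -1.44 (SE 0.08, adjusted p = 1.6e-15, limma), a 2.71-fold difference with NT3 lower, and it was negative on all 6 days, from -0.93 on day 3 to -2.52 on day 20. RT1-CE10 was alike on neither day 3 nor day 20. Day by day the NT3 and LC arrays did not overlap. With the muscle covariate the difference was -1.40, and on the days with RT1-CE10 alike (10, 30 and 60) it was -1.33. Its second probe set differed by -1.03.

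Bmp7 was lower on every day, with 7.96, 8.51 and 9.09 in NT3 arrays and 8.35, 9.15 and 10.22 in LC. The difference was -0.73 (SE 0.06, adjusted p = 8.2e-11, limma), between -0.27 and -1.18 by day. Ltbp2 differed by -0.60 (SE 0.07), with 9.30, 10.43 and 11.09 in NT3 arrays and 10.14, 11.11 and 11.40 in LC. Its difference was 0.31 on day 10, -1.03 on day 60 and -1.39 on day 90, and on days with RT1-CE10 alike it was -0.37. Bmp4 differed by -0.52 (SE 0.09), with 8.53, 9.60 and 10.60 in NT3 arrays and 9.07, 9.95 and 11.43 in LC. The groups overlapped in Bmp7, Ltbp2 and Bmp4 over all days. By day Bmp4 differed by -1.03 on day 3, 0.01 and 0.05 on days 10 and 20, and -0.91 on day 90. Days 3, 20 and 90 were not among those with RT1-CE10 alike.

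Tgfb3 went the other way. It had 10.06, 10.80 and 11.49 in NT3 arrays and 9.64, 10.18 and 10.44 in LC, a difference of 0.62 (SE 0.05, adjusted p = 5.7e-11, limma). The gap was 1.22, 0.96 and 1.11 on days 10, 20 and 30, and 0.02, 0.28 and 0.11 on days 3, 60 and 90. On day 10 the NT3 arrays had 11.23, 11.43 and 11.49 and the LC arrays 9.97, 10.08 and 10.44. Tgfb1 and Tgfb2 were both lower with NT3, each by 0.42, so the 3 TGF-betas were called in different directions.

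Gdf10 was 0.51 higher (SE 0.08, adjusted p = 1.2e-05, limma), with 8.12, 10.78 and 11.58 in NT3 arrays and 8.38, 10.03 and 11.22 in LC. It was 1.21 lower on day 3 and 1.02, 1.19 and 1.28 higher on days 10, 20 and 30. Of these days, 10 and 30 had RT1-CE10 alike, and 3 and 20 did not. Over days 10 to 90 alone the Gdf10 difference was 0.85. Smad9 was 0.37 higher (SE 0.08), with 6.42, 7.84 and 8.65 against 6.51, 7.34 and 8.18, again lower on day 3 and higher after. Smad1, another SMAD that BMP receptors activate, had 10.23, 10.46 and 10.76 against 10.14, 10.37 and 10.55, a difference of 0.13. Its call was lost with the muscle covariate (0.11, adjusted p = 0.115, limma). The second, dimmer probe set of Smad1 differed by -0.07 and was not tested.

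The other members lower with NT3 were Inhbb (-0.44), Bmp6 (-0.41), Ltbp1 (-0.30), Bmp1 (-0.24), Smad3 (-0.23), Tgfbr1 (-0.19), Smad6 (-0.12) and Inhbe (-0.11), besides the Tgfb1 and Tgfb2 given above. On days with RT1-CE10 alike the calls of Bmp1 (0.05), Bmp6 (-0.13), Smad3 (-0.15) and Inhbe (-0.11) were lost. Of the wider pathway, 6 of 13 antagonists were lower, among them Grem1 (-0.60) and Nog (-0.49), and none higher, where 22.9% of all genes were lower and 19.0% higher. Junb was 0.65 lower and Id4 0.73 higher. Hjv, a BMP co-receptor of muscle, was 1.54 higher (SE 0.30), beside the higher muscle markers given above.

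**Figure D3:**
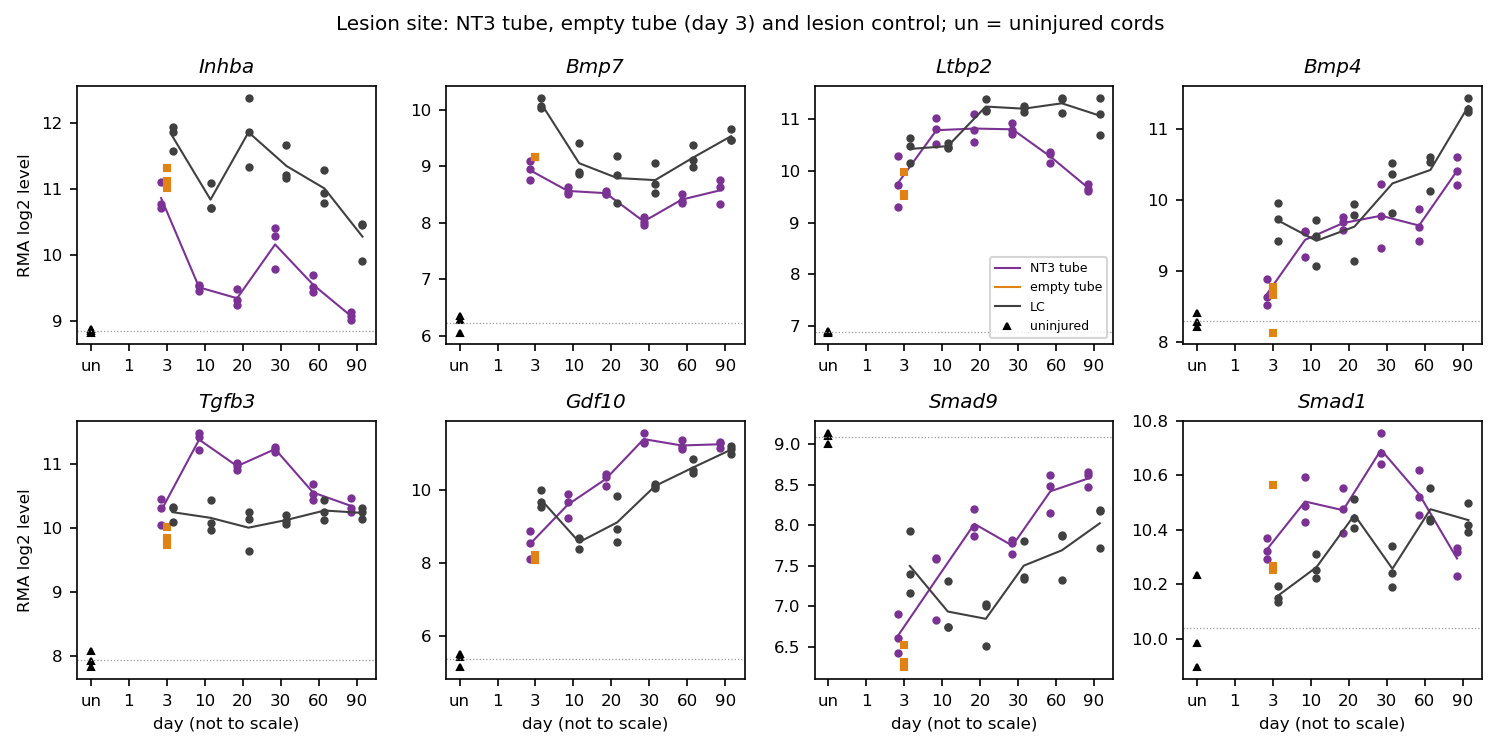
Levels (RMA log2, y axis) of 8 members at the lesion site by day (x axis, not to scale) with the NT3 tube (purple), the empty tube (orange squares, day 3 only) and in LC (dark grey); points are arrays, lines group means, black triangles and the dotted line the uninjured cords. NT3 points of Inhba lie under the LC points on each day, and Tgfb3 is 1.22 higher with NT3 on day 10.

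Day 3 allowed a comparison with the empty tube at the lesion site. Against LC, ET had 5 members higher and 14 lower, with 7.41% of all genes called higher and 15.8% lower; scaling each array by its 75th percentile gave 8 higher and 12 lower. The direction over all genes turned with the scaling: 892 were higher and 1902 lower as deposited, 1899 and 914 with the 75th percentile, and 1366 and 1166 with quantile scaling. Gdf10 had 8.08, 8.08 and 8.23 in ET arrays and 9.53, 9.67 and 10.00 in LC, a difference of -1.60 (SE 0.20, adjusted p = 2.5e-06, limma). Bmp5 had 6.24, 6.26 and 6.42 in ET arrays and 7.76, 7.79 and 7.94 in LC (-1.52, SE 0.22). Bmp4 had 8.14, 8.66 and 8.78 in ET arrays and 9.42, 9.74 and 9.96 in LC (-1.18), and Smad9 had 6.24, 6.31 and 6.52 in ET arrays and 7.16, 7.40 and 7.93 in LC (-1.14). None of these 4 overlapped between the groups. Tgfbr1 was 0.70 higher (SE 0.12), with 12.56, 12.59 and 12.78 in ET arrays and 11.75, 11.89 and 12.19 in LC, and Tgfbr3, a co-receptor, 0.45 higher, with 6.81 to 6.90 in ET arrays and 6.35 to 6.47 in LC. Inhbe, an activin subunit, was 0.35 higher and Bmp2k 0.32 higher, the second with 10.92, 10.99 and 11.50 in ET arrays and 10.69, 10.86 and 10.89 in LC. The microglia and macrophage list ran from 10.81 to 10.94 in these ET arrays and from 10.20 to 10.40 in LC, with 5 of its 7 markers higher. The skeletal muscle list averaged 6.28 ± 0.05 in ET arrays and 8.25 ± 1.19 in LC (SD, n = 3 each), with no overlap and 2 of its 7 markers lower. With the muscle list as a covariate 4 members were higher and 13 lower, and Bmp2k and Tgfb3 lost their calls. The part of the microglia and macrophage list was not tested. RT1-CE10 lay at 7.41 to 7.99 in these ET arrays, while 10 of 18 LC lesion-site arrays over all days stood above 9. That count is not of day 3 alone, so it does not show where the LC arrays compared here stood. The part of RT1-CE10 was not tested either. Among the other pathway genes Sostdc1, a BMP antagonist, was 2.21 lower.

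Against ET on the same day, the NT3 tube had 1 member higher and 2 lower, with 5.28% of all genes called higher and 1.94% lower. Smad2 was 0.32 higher, with 9.26, 9.49 and 9.51 in NT3 arrays and 9.04, 9.07 and 9.20 in ET. Bmp6 was 0.43 lower, with 8.81 to 8.90 against 9.13 to 9.45, and Inhbe 0.40 lower, with 6.15 to 6.50 against 6.59 to 6.82. Each of the 6 arrays moved the count: it was 7 without the first NT3 array, 0 without the third NT3 or the second ET array, and 1 without any of the other 3. The 75th percentile scaling gave 0 higher and 5 lower, and quantile scaling 0 higher and 2 lower. Over all genes 636 were higher and 234 lower as deposited, 213 and 687 with the 75th percentile and 290 and 399 with quantile scaling, so the overall direction turned. The skeletal muscle list ran from 7.08 to 11.02 in NT3 arrays and from 6.23 to 6.32 in ET, with no overlap and 2 of its 7 markers higher. With the muscle list as a covariate no member was called. Inhba differed by -0.29 and Gdf10 by 0.39, neither called. RT1-CE10 stood above 9 in none of the ET arrays and, over all days, in 3 of 18 NT3 lesion-site arrays. Its part was not tested.

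In the rostral segment Gdf10, Ltbp2, Tgfb3 and Ltbp1 were higher with the empty tube than in LC. In ET against LC 13 members were higher and 2 lower, with 7.90% of all genes called higher and 14.9% lower. Gdf10 had 5.42, 8.53 and 10.02 as lowest, median and highest of 20 ET arrays, against 5.28, 7.18 and 8.26 in 21 LC arrays, a difference of 1.02 (SE 0.12, adjusted p = 5.4e-08, limma). Ltbp2 had 7.65, 8.76 and 9.14 in ET arrays and 7.50, 7.88 and 8.92 in LC (0.62), Tgfb3 8.32, 9.02 and 9.34 and 7.71, 8.18 and 9.24 (0.61), and Ltbp1 differed by 0.47. The groups overlapped in each. By day Gdf10 differed by -0.61, -0.01, 1.14, 0.77, 1.72, 1.89 and 2.20 on days 1 to 90, so the higher values came from day 10 on. The largest, 1.89 and 2.20, fell on days when RT1-CE10 was not alike. It was alike on days 1, 10, 20 and 30. Gdf11 was 0.15 lower, with 8.71, 9.01 and 9.32 in ET arrays and 8.83, 9.22 and 9.42 in LC, and Tgfbrap1 0.11 lower. On the days with RT1-CE10 alike 4 of the 15 stayed called, Gdf10 at 0.76, Ltbp2 at 0.42, Tgfb3 at 0.61 and Ltbp1 at 0.36. All 7 fibroblast and meninges markers were higher in rostral ET than in LC arrays, with list medians of 11.75 and 10.68, and the skeletal muscle list reached 10.70 in one rostral ET array of day 30. Their part in the result was not tested.

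With the NT3 tube against ET in the rostral segment 2 members were higher and 18 lower, with 17.4% of all genes called higher and 12.8% lower. Ltbp2 differed by -0.74 (SE 0.08, adjusted p = 4.5e-09, limma), with 7.19, 7.79 and 8.50 in NT3 arrays and 7.65, 8.76 and 9.14 in ET. Gdf10 differed by -0.58, with 5.35, 7.71 and 8.70 against 5.42, 8.53 and 10.02, Inhba by -0.57, with 8.00, 8.62 and 10.54 against 8.70, 9.15 and 11.30, and Bmp7 by -0.44, with 6.77, 7.65 and 8.89 against 7.64, 8.10 and 8.92. The groups overlapped in each of these 4. Smad9 was 0.24 higher, with 7.90, 8.43 and 8.97 in NT3 arrays and 7.51, 8.29 and 8.81 in ET, and Gdf11 0.15 higher. Both comparisons use the same ET arrays, so their values are not independent. The median of the fibroblast and meninges list was 11.00 in rostral NT3 and 11.75 in rostral ET arrays, and all 7 markers were lower with NT3; their part was not tested. With RT1-CE10 alike the count was 9.

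Against LC, the NT3 tube had 2 members called in the rostral segment. Gdf10 was 0.44 higher (adjusted p = 0.038) and Bmp2 0.23 lower (adjusted p = 0.044, limma), with 1.15% of all genes called higher and 1.61% lower. Gdf10 had 5.35, 7.71 and 8.70 in NT3 arrays and 5.28, 7.18 and 8.26 in LC, and Bmp2 6.77, 7.11 and 8.20 in NT3 arrays and 6.89, 7.26 and 9.36 in LC. On days with RT1-CE10 alike Bmp2 differed by -0.04. Leaving out single arrays moved the count in 28 of 42 cases, between 0 and 4, and neither call was kept in all of them.

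In the caudal segment Bmp7, Ltbp1, Inhba and Ltbp2 were lower with the NT3 tube than in LC and with the empty tube. NT3 against LC had 1 member higher and 5 lower, with 5.91% of all genes called higher and 3.85% lower, and none was called on the days with RT1-CE10 alike. Quantile scaling gave 0 higher and 5 lower. Gdf15 differed by -0.42 (SE 0.11), with 5.58, 6.67 and 7.13 in NT3 arrays and 6.13, 6.91 and 9.11 in LC, and the groups overlapped. Bmp7 differed by -0.31, with 6.44, 7.47 and 8.96 in NT3 arrays and 6.57, 7.79 and 8.92 in LC, Ltbp1 by -0.31 and Inhba by -0.23, and Gdf11 was 0.10 higher. The count ran from 2 to 7 when single arrays were left out, lowest without the third caudal LC array of day 1. NT3 against ET had no member higher and 7 lower, with 4.65% of all genes called higher and 3.73% lower, led by Ltbp1 (-0.38), Bmp7 (-0.37), Inhba (-0.36) and Ltbp2 (-0.34). Ltbp1 had 7.37, 8.71 and 9.69 in NT3 arrays and 8.29, 9.17 and 9.68 in ET, and Inhba 8.07, 8.31 and 10.81 in NT3 arrays and 8.18, 8.68 and 10.91 in ET, so the groups overlapped, while 5 of the 7 fibroblast and meninges markers were lower, whose part was not tested. ET against LC had Acvr1, a type I receptor of BMPs and activins, 0.21 higher, with 8.59, 8.88 and 9.43 in ET arrays and 8.31, 8.68 and 9.03 in LC, and Smad5 0.14 higher, with 9.05, 9.43 and 9.58 in ET arrays and 9.01, 9.32 and 9.42 in LC. There 1.72% of all genes were called higher and 1.79% lower. The mean of the probe sets called neither, and the days with RT1-CE10 alike called 6 members.

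**Figure D4:**
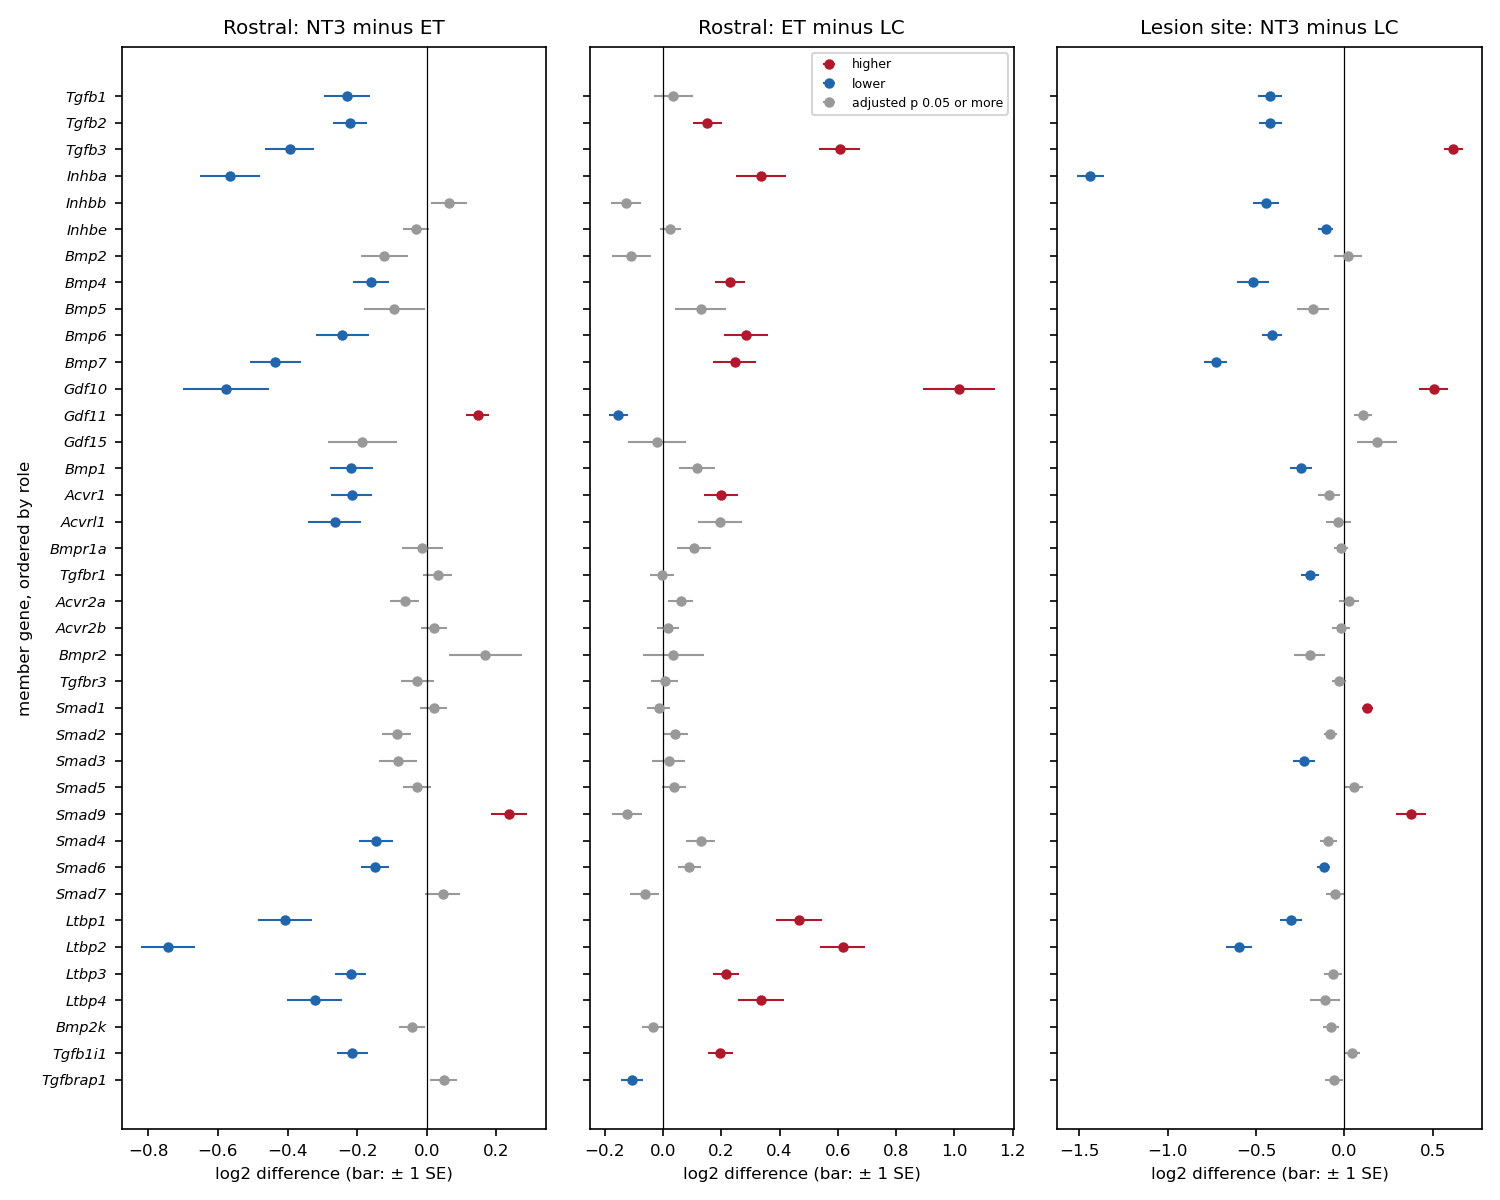
Differences between treatments for the 38 tested members (points, log2, bars ± 1 SE) in the rostral segment (NT3 minus ET, ET minus LC) and at the lesion site (NT3 minus LC); red is higher, blue lower and grey not called. Inhba lies farthest left at the lesion site, at -1.44, and Gdf10 farthest right in ET minus LC, at 1.02.

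By a moderated F-test in limma, the NT3 minus LC difference changed with the day for 26 members at the lesion site, 16 rostrally and 6 caudally. Of all genes 50.6%, 28.2% and 7.18% did. These tests took in days when RT1-CE10 was not alike, and its part was not tested. At the lesion site Gdf10 (adjusted p = 3.0e-07) and Tgfb3 (adjusted p = 1.5e-06) had the lowest values, and their days are given above. Rostrally Tgfb3 was lowest (adjusted p = 6.5e-04) and caudally Tgfb1i1 (adjusted p = 0.0043).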

How the data were processed

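RNA of rat spinal cord segments was measured on Affymetrix arrays. The deposited values are log2 probe set levels that the authors computed by RMA, with GCOS and Affymetrix Expression Console, per the submitters' processing notes. Which arrays were normalised together is not given in the sources used here. Array medians lay between 7.1010 and 7.2487, so differences are relative to the whole array, and the number of arrays limits the precision.

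Of 31099 probe sets, 57 of them controls, 20832 named 1 gene, 436 several and 9831 none. The percentiles of the filter and the alternative scalings were computed over all probe sets, controls included. The probe set with the highest mean stood for each of 14218 genes. Genes above their array's 40th percentile on at least 3 arrays were tested (12041). A model with a mean for each group was fitted for each segment with the uninjured cords in limma 3.58.1 (R 4.3.3), with Benjamini-Hochberg adjustment over all tested genes, and days weighed equally in each contrast. The code was tested on simulated data. Tables and figures used Python 3.11.15, pandas 2.3.3, numpy 2.4.6 and matplotlib 3.10.9.

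Genes named with values in each comparison were the 4 highest and 4 lowest called members, and up to 3 called genes of each pathway list. Some further members are named with their differences only. The members and all lists were chosen with earlier results of these data known. Alternatives covered scaling (quantile normalization, the 75th percentile), averaged probe sets, the arrays in the model (all segments together, or only the groups compared), covariates (beta-actin, skeletal muscle, a replicate block), the filter (none, or the 60th percentile), array weights, days with RT1-CE10 alike, days 10 to 90 alone, and leaving out single arrays or 3 arrays that stood apart. Those 3 were 1 uninjured cord (replicate 2) and, at the lesion site, the LC array of day 20 numbered 5 and the NT3 array of day 3 numbered 1.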

Additional observations from a re-analysis of the deposited data

Results flagged for a closer look

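The NT3 minus LC difference was not the same on all days for a number of members, by a moderated F-test in limma of the day by treatment terms with Benjamini-Hochberg adjustment over all tested genes. At the lesion site (days 3 to 90) this held for 26 members. Their adjusted p-values were Acvr1 (0.0194), Acvrl1 (0.0063), Bmp1 (1.5e-04), Bmp2 (0.00155), Bmp4 (0.0097), Bmp5 (5.0e-05), Bmp6 (1.7e-05), Bmp7 (0.0123), Bmpr1a (6.4e-04), Bmpr2 (1.2e-04), Gdf10 (3.0e-07), Gdf11 (9.1e-04), Gdf15 (0.0379), Inhba (3.7e-04), Inhbb (0.00321), Ltbp1 (0.00699), Ltbp2 (7.8e-05), Ltbp3 (7.6e-06), Ltbp4 (7.2e-04), Smad1 (0.00203), Smad2 (0.0013), Smad9 (7.4e-05), Tgfb1 (9.3e-04), Tgfb1i1 (7.1e-05), Tgfb3 (1.5e-06) and Tgfbr1 (1.1e-04). For Gdf10 and Smad9 the difference was below 0 on day 3 and above 0 on every later day, and for Tgfb3 it was widest on days 10 to 30.

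In the rostral segment, over days 1 to 90, the adjusted p-values of 16 members were Acvr2a (0.013), Acvrl1 (0.0019), Bmp2k (0.0155), Bmp4 (0.00114), Bmp7 (0.0014), Gdf10 (0.0129), Gdf15 (0.0367), Inhba (0.00183), Ltbp1 (0.0135), Ltbp2 (0.0475), Ltbp3 (0.0204), Ltbp4 (0.025), Smad2 (0.0341), Smad4 (0.0492), Smad9 (0.0157) and Tgfb3 (6.5e-04). In the caudal segment those of 6 members were Bmp4 (0.0107), Bmp6 (0.0191), Smad1 (0.0321), Smad2 (0.0334), Tgfb1i1 (0.0043) and Tgfbr1 (0.0426). The NT3 and LC arrays behind these values are the ones used for the means over days, so the values are not independent of those comparisons. The tests took in days when RT1-CE10 was not alike, and they were not repeated without them.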

How the results depend on the processing

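Of 15805 values that the called members took under the alternatives, 15094 kept sign and call, 704 kept the sign without the call and 7 turned. With the mean of probe sets Gdf11 turned in late against early rostral LC (-0.0088), Smad5 in late against early LC lesion sites (-0.0260) and in early caudal LC (0.23), and Tgfbr1 between the lesion site and its neighbours (0.0317). With the beta-actin covariate Bmpr1a turned at intermediate caudal LC days (-0.14) and Smad6 at early ones (-0.0023), and on days with RT1-CE10 alike Bmp1 turned in NT3 against LC at the lesion site (0.0472). The cause was not tested.

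Counts of called members that moved by over 1.5 times were these. For NT3 against ET on day 3 at the lesion site (3), the count was 5 with the 75th percentile scaling, 14 with array weights, 0 in a fit of the compared groups alone, 5 with no filter, 0 with the muscle covariate and 8 without the 3 arrays that stood apart. For NT3 against LC it was, rostrally (2), 6 with array weights, 1 with the beta-actin covariate, 0 in a fit alone and 1 with the mean of probe sets, and caudally (6), 0 on days with RT1-CE10 alike and 3 with the mean of probe sets. On days with RT1-CE10 alike ET against LC had 4 rostrally (15) and 6 caudally (2), and NT3 against ET had 9 rostrally (20). ET against LC had 0 caudally with the mean of probe sets. The LC rostral against caudal count (0) was 2 with array weights, 1 with the mean of probe sets and 1 in one fit of all arrays. With array weights the day by treatment test called 27 members caudally (6) and 30 rostrally (16). The cause was not tested.

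Leaving out single arrays gave ranges of 27 to 32, 27 to 29 and 24 to 28 members for early, intermediate and late rostral LC against uninjured cord, 31 to 34, 34 to 37 and 33 to 34 at the lesion site, and 25 to 31, 26 to 30 and 21 to 26 caudally. Late against early LC ran from 22 to 24 rostrally, 18 to 20 at the lesion site and 18 to 22 caudally, the lesion site against its neighbours from 32 to 34, and rostral against caudal LC from 0 to 3. NT3 against LC ran from 0 to 4 rostrally, 17 to 20 at the lesion site and 2 to 7 caudally, and NT3 against ET from 19 to 21 rostrally, 5 to 10 caudally and 0 to 7 at the lesion site on day 3. ET against LC ran from 14 to 18 rostrally, 2 to 4 caudally and 15 to 23 at the lesion site on day 3. The day by treatment test ran from 10 to 21 rostrally, lowest without the second LC array of day 1, 25 to 28 at the lesion site, and 3 to 7 caudally, lowest without the first LC array of day 3.

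Same-numbered arrays did not deviate together in every pair. The correlation was above 0.1 in 13 of 21 pairs of rostral and caudal LC arrays (median 0.246). It was so in 19 of 34 pairs of LC lesion-site and neighbouring arrays (median 0.119). For NT3 and LC lesion-site arrays, which belong to different arms, it was so in 7 of 17 pairs (median -0.017). Rostrally, arrays of different arms also deviated together in part. The correlation was above 0.1 in 11 of 20 pairs of NT3 and ET (median 0.117) and 11 of 20 of ET and LC (median 0.116). The labels do not say whether same-numbered segments came from 1 animal. The main fit did not pair same-numbered arrays, so its p-values treat segments, and the arms within a segment, as independent. With the replicate block the LC rostral against caudal count was 1, and no other count of called members moved by over 1.5 times. The limits are 3 arrays in nearly every group and 3 uninjured cords shared by all comparisons with uninjured cord. The labels give these cords no segment level and no day. Whether they match the injured segments in level or time is therefore not known. A further limit is that other, dimmer probe sets of Smad9, Gdf11, Bmpr2, Smad7 and Tgfbr3 show smaller falls than the used ones or none.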
